A study of Homo sapiens with 48 samples.

Results

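Inhibition of BAF chromatin remodelling and inhibition of protein kinase C were compared gene by gene in the uveal melanoma line 92-1 after 24 h of treatment. The 12 samples were picked by their labels (line 92-1, time 24 h) from the 48 samples of the series and form 4 groups of 3 replicates. One drug, FHT-1015, is a dual inhibitor of SMARCA4 and SMARCA2, the ATPases of BAF complexes, and was set against DMSO replicates 1 to 3. The other, IDE196, inhibits protein kinase C and was set against DMSO replicates 4 to 6, which are labelled as its own control. All 4 groups are the same established line with the genotype given as WT, DMSO is the vehicle, and the doses are not in the labels. The labels call the replicates biological without saying how the cultures were separated, so p-values measure the spread between these samples. Gene expression was read as RNA sequencing counts per gene, and the quantity of interest was the log2 fold change with FHT-1015 minus the log2 fold change with IDE196, each against its own DMSO. A positive difference means a higher value with FHT-1015 relative to IDE196. It was tested for 16917 genes.

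As background, uveal melanoma arises from melanocytes of the eye, and most tumours carry an activated G protein of the Gq family, GNAQ or GNA11. Activated Gq drives phospholipase C beta, which releases diacylglycerol. Diacylglycerol activates protein kinase C and the exchange factor RASGRP3, and these feed the MAPK cascade. The cascade induces immediate early genes and a set of its own inhibitors, such as the Sprouty and DUSP families. BAF complexes move nucleosomes and keep enhancers open, and in melanocytic cells they work with the lineage factors SOX10 and MITF, which hold up pigment genes and, for SOX10, genes of the neural crest and Schwann cell lineage.

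The 24 h libraries held between 11991337 and 23086368 reads in genes, with 21902 to 25605 genes detected. The biological coefficient of variation was 0.115 and the median standard error of a difference of effects was 0.225 on the log2 scale. Mitochondrial genes took 3.79% to 9.55% of gene reads, with higher shares in both treated groups than in their DMSO sets, and their part in the results was not tested. SOX10, MITF, PMEL, MLANA, TYR and TYRP1, markers of the melanocytic identity on the label, were present in every library, the lowest value being 16.3 CPM (reads of a gene scaled to a common library size) for TYR, whereas DCT ranged from 0.0612 to 19.7 CPM. Of 15 markers of blood, vessel, epithelial, stromal and retinal pigment cells, 11 stayed under 1 CPM in every library, CD3E and RPE65 at a maximum of 2 reads, while KRT5 reached 11.8 and RLBP1 5.95 CPM. Their summed level was 6.14 to 7.85 CPM in DMSO and 1.86 to 2.00 CPM with FHT-1015, and 5.30 to 13 CPM in DMSO and 6.74 to 15.5 CPM with IDE196, and their part in the results was not tested. Each drug was used in an experiment of its own, so a difference between drugs and a difference between experiments in how cells respond cannot be told apart. The DMSO sets differed from each other for 45.2% of the genes, and for the 24 h opposite movers described next this share was 53.2% (FHT-1015 lower, IDE196 higher) and 57.9% (FHT-1015 higher, IDE196 lower). Among genes moved by 1 drug alone it was 60% (FHT-1015, higher), 54% (FHT-1015, lower), 53.8% (IDE196, higher) and 59.9% (IDE196, lower).

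Each drug changed most of the genes tested. With FHT-1015, 4463 genes were higher (26.4%) and 5086 lower (30.1%), or 56.4% of all genes, and with IDE196 4549 were higher (26.9%) and 4725 lower (27.9%), or 54.8% (edgeR quasi-likelihood F-test, adjusted p under 0.05). The effects themselves differed between the drugs for 33% of the genes, 2690 (15.9%) with a positive and 2896 (17.1%) with a negative difference. The difference was over 1 on the log2 scale in 1037 and 1549 of them, and over 3 in 223 and 340. Most genes called under both drugs nevertheless moved in the same direction: 2378 were higher and 3071 lower with each drug, and for 1867 and 2116 of these the difference was not called. Over the genes, which do not count as independent replicates, the effects of the drugs had a Pearson r of 0.375 and a Spearman rho of 0.483 at 24 h. In bulk RNA, fewer cells in a state and less RNA of a gene per cell cannot be told apart, and this holds for every change given here.

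Genes moved in opposite directions numbered 1083. Of these, 720 (4.26% of all genes) were lower with FHT-1015 and higher with IDE196, and 363 (2.15%) the reverse, each drug's effect and the difference being called. In 194 and 89 genes of these classes both effects were at least 2-fold, and in 48 and 21 at least 4-fold. A gene was counted as moved by 1 drug alone when that effect and the difference were called and the 95% interval of the other drug's effect lay within a 1.5-fold change either way (0.585 on the log2 scale). FHT-1015 alone raised 535 genes (3.16%) and lowered 628 (3.71%), and IDE196 alone raised 455 (2.69%) and lowered 621 (3.67%). In 44, 82, 30 and 107 of these genes the other drug's effect was called too, in the same direction and inside the margin, so those genes are also among the 2378 and 3071. These classes depend on that margin, and with 1.2-fold in its place they held 66, 89, 69 and 109 genes. For 959 further genes the other drug's interval was too wide to place them.

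**Figure D1:**
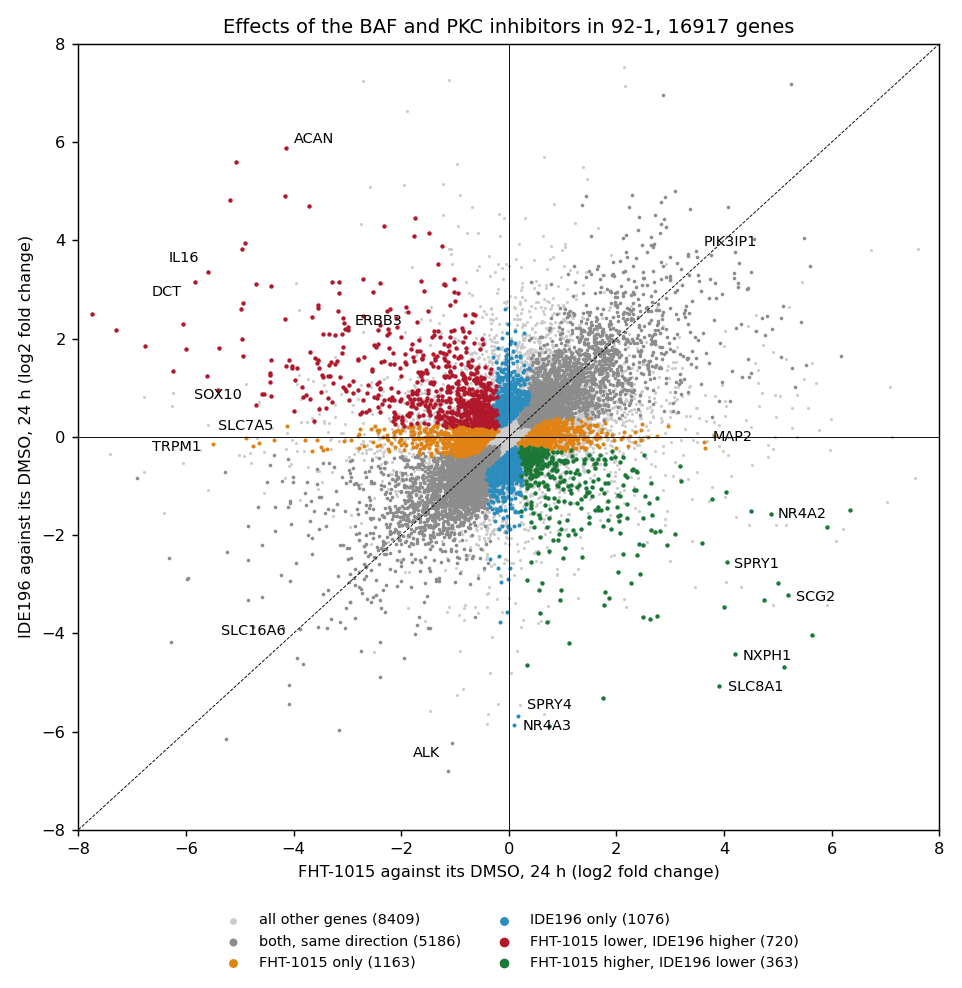
Effect of each drug on 16917 genes in 92-1 at 24 h. The x axis is the log2 fold change with FHT-1015 and the y axis that with IDE196, each against its own DMSO, each point is a gene, the colour gives its class, the dashed diagonal marks equal effects, and 6 genes lie outside the plotted range. The 720 genes lower with FHT-1015 and higher with IDE196 fill the upper left, with ACAN at its far end, and the 363 of the reverse class fill the lower right, led by SLC8A1 and NXPH1.

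Promoters of members that moved apart or by 1 drug are shown for 4 genes, to let the sequences in front of these starts be read beside their values. RefSeq (GRCh38.p14) holds a promoter entry for 10876 of the 16917 genes. The 4 were picked after the matches were seen, each because it holds one, and they do not stand for the rest. Of the 87 genes with an entry among the 112 selected for description, 24 (27.6%) hold any match, against 32.9% of all entries, and promoters such as those of EDNRB, DCT, ETV1 and BCAN hold none. Each sequence is the 250 bases before the RefSeq start, 5′ to 3′ along the gene's strand, and capitals mark a match to 1 of 8 searched motifs. The motifs, sought on both strands, were TGACGTCA (CRE), TGANTCA (AP-1), CACGTG (E-box), TCATGTG (M-box core, bound by MITF), CCGGAAGT (ETS), ACAATG and ACAAAG (SOX) and the CArG box. OCA2 (chr15:28099316-28099565, minus strand) and PMP22 (chr17:15265327-15265576, minus strand), both lower with FHT-1015 and higher with IDE196, each hold a SOX match, in OCA2 as the reverse complement CTTTGT, beginning 142 and 118 bases before the start. SPRY1 (chr4:123396545-123396794, plus strand), of the reverse class, holds the M-box core on the other strand, beginning 68 bases before the start. TSPAN10 (chr17:81642055-81642304, plus strand), lowered by FHT-1015 alone, holds AP-1 matches beginning 183 and 76 bases and an M-box core beginning 80 bases before the start, the last 2 overlapping, and this window lies inside the gene span given for TSPAN10 beside its values.
OCA2: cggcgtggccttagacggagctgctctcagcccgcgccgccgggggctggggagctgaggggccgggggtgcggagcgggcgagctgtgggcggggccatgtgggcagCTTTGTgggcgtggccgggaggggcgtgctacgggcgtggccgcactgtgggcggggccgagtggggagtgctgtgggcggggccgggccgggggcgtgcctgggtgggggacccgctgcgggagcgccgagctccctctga
PMP22: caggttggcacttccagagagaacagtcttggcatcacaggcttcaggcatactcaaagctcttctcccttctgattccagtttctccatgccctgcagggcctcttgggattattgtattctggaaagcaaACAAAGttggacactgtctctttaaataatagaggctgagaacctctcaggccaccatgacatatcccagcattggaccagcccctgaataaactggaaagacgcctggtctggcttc
SPRY1: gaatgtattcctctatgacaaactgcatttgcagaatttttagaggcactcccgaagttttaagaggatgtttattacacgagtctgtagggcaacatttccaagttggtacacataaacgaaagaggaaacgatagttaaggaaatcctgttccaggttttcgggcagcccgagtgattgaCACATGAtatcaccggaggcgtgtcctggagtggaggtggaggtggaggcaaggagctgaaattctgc
TSPAN10: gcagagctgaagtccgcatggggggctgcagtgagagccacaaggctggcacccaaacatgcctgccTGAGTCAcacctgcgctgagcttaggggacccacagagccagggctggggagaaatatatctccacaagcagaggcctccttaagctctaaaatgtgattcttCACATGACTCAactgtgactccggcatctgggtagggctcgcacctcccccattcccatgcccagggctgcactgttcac

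Among genes lowered by the BAF inhibitor and raised by the PKC inhibitor, those with the largest effects under both included ACAN, GPR158, IL16, DCT, COL9A1 and OLFML2A. ACAN (ENSG00000157766.16, chromosome 15, 88803442 to 88875354, plus strand), the proteoglycan aggrecan, stood at 0.355, 0.593 and 0.535 CPM in DMSO and 0, 0.0757 and 0 CPM with FHT-1015, and at 0.819, 0.833 and 0.805 CPM in DMSO and 43, 45.1 and 57.7 CPM with IDE196. All 3 IDE196 libraries lay above, and all 3 FHT-1015 libraries below, every DMSO library, but the low end rested on a read or none in each FHT-1015 library. Counted over the group, ACAN had 1 read with FHT-1015 against 27 in DMSO, a 22.4-fold fall with a 95% counting interval of 3.69 to 916. The rise of ACAN with IDE196 was well counted and came to 5.88 (SE 0.21) on the log2 scale, with an adjusted p from edgeR of 3.06e-17. The fitted difference between the drugs was -10.02, and as few reads set its low side it is not precise: the value was -12.18 without FHT-1015 replicate 2 and -9.42 without replicate 3.

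DCT (ENSG00000080166.16, chromosome 13, 94436808 to 94479682, minus strand), dopachrome tautomerase of melanin synthesis, had 7.91, 5.70 and 5.76 CPM in DMSO and 0.195, 0.0757 and 0.0557 CPM with FHT-1015, and 3.10, 1.13 and 1.34 CPM in DMSO and 19.8, 14.7 and 15.6 CPM with IDE196. Its log2 fold changes were -5.84 (SE 0.58) and 3.16 (SE 0.33), a difference of -9.0 (SE 0.65, edgeR adjusted p 1.76e-11). Each treated group lay apart from its DMSO set, although the DMSO sets themselves differed, the second being lower. COL9A1 (ENSG00000112280.16, chromosome 6, 70215061 to 70303083, minus strand), a chain of cartilage collagen IX, had 3.38, 3.14 and 3.74 CPM in DMSO and 0, 0.605 and 0.445 CPM with FHT-1015, and 4.69, 7.05 and 8.01 CPM in DMSO and 46.2, 57.9 and 71.4 CPM with IDE196, with effects of -3.29 (SE 0.48) and 3.15 (SE 0.26). OLFML2A (ENSG00000185585.20, chromosome 9, 124777158 to 124814885, plus strand), which encodes a secreted olfactomedin-like protein, had effects of -3.15 (SE 0.26) and 2.93 (SE 0.19), and the orphan receptor GPR158 (ENSG00000151025.11, chromosome 10, 25174802 to 25602226, plus strand) effects of -3.71 (SE 0.42) and 4.71 (SE 0.21). IL16 (ENSG00000172349.17, chromosome 15, 81159575 to 81314058, plus strand), a cytokine precursor, had effects of -5.59 and 3.37. It shares 36.6% of its exon bases with other genes, and when the 2 stranded columns were summed instead its FHT-1015 effect was -3.89. The size of the FHT-1015 falls depended on replicate 1 of that group, without which they were -7.10 for IL16, -6.54 for DCT and -4.44 for GPR158, and without replicate 3 GPR158 stood at -3.02.

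Of 9 glial and Schwann lineage genes tested, 7 fell with FHT-1015 (30.1% of all genes did) and 7 rose with IDE196 (26.9% of all genes did). The class lower with FHT-1015 and higher with IDE196 held 7 of the 9, against 4.26% of all genes. The list's median log2 fold change was -1.70 with FHT-1015 and 0.94 with IDE196, against 0.00 and 0.03 over all genes. ERBB3 (ENSG00000065361.15, chromosome 12, 56076799 to 56103505, plus strand), the neuregulin receptor of Schwann cells and melanocytes, had 124, 112 and 117 CPM in DMSO and 15.3, 13.9 and 15.1 CPM with FHT-1015, and 173, 196 and 196 CPM in DMSO and 719, 847 and 989 CPM with IDE196. The FHT-1015 libraries lay far below and the IDE196 libraries far above both DMSO sets, and the difference of the effects, -2.99 and 2.18, was -5.17 (SE 0.17, edgeR adjusted p 2.51e-18). EDNRB, the endothelin receptor of neural crest cells (ENSG00000136160.16, chromosome 13, 77895481 to 77975529, minus strand), moved by nearly the same amount each way, -2.0 (SE 0.15) and 2.03 (SE 0.15), from 371, 301 and 275 CPM in DMSO to 77.2, 82.7 and 76.1 CPM with FHT-1015 and from 344, 245 and 215 CPM in DMSO to 1226, 1084 and 981 CPM with IDE196. PMP22, a peripheral myelin protein (ENSG00000109099.15, chromosome 17, 15229777 to 15265357, minus strand), fell from 183, 182 and 175 CPM in DMSO to 20.3, 22.2 and 23.6 CPM with FHT-1015 and rose from 192, 163 and 162 CPM in DMSO to 393, 324 and 276 CPM with IDE196, with effects of -3.03 (SE 0.12) and 0.94 (SE 0.10). In all these genes treated and DMSO libraries of the same experiment did not overlap. The adhesion molecule L1CAM had effects of -1.70 with FHT-1015 and 0.88 with IDE196. MBP, myelin basic protein, had effects of -1.57 and 0.28, of which the second was no longer called under 3 of 21 alternatives, its adjusted p ranging from 0.00135 to 0.0796 over edgeR, DESeq2 and limma fits. CDH19, a cadherin of Schwann cell precursors, went the other way, with 1.07 (SE 0.11) under FHT-1015 and -0.19 under IDE196. GFRA1, a GDNF co-receptor, rose with FHT-1015 by 3.34 (SE 0.80), at a mean of only 0.44 CPM over the 24 h libraries. With IDE196 it had 0.88 (SE 0.81), and its difference of 2.5 (SE 1.2) was not called and is too imprecise to compare the drugs.

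Melanocyte transcription factors moved apart in part. Of 11 tested, 5 fell and 4 rose with FHT-1015, 8 rose and none fell with IDE196, and 6 had a negative and 1 a positive difference. Of all genes, 30.1% fell and 26.4% rose with FHT-1015, 26.9% rose with IDE196 and 17.1% had a negative difference. The count of rises with FHT-1015 is thus little above the share of all genes. SOX10 (ENSG00000100146.17, chromosome 22, 37970686 to 37987422, minus strand) had 502, 562 and 569 CPM in DMSO and 21.8, 23.1 and 17.9 CPM with FHT-1015, and 797, 774 and 853 CPM in DMSO and 1339, 1279 and 1201 CPM with IDE196. No replicate overlapped, and the effects of -4.70 and 0.66 (SE 0.11) gave a difference of -5.36 (SE 0.16, edgeR adjusted p 9.29e-19). MITF (ENSG00000187098.15, chromosome 3, 69739435 to 69968337, plus strand), the regulator of pigment genes, fell from 443, 333 and 370.1 CPM to 125, 112 and 125 CPM with FHT-1015, while with IDE196 it had 608, 565 and 590.1 CPM against 579.5, 580.1 and 502 CPM in DMSO, so that IDE196 replicates overlapped their DMSO set. The MITF effect of IDE196 was 0.08 with a 95% interval of -0.14 to 0.31, and the difference between the drugs was -1.75 (SE 0.16, edgeR adjusted p 1.26e-09). IRF4 (ENSG00000137265.15, chromosome 6, 391739 to 411447, plus strand), a factor that acts with MITF on the tyrosinase gene, had 2.22, 1.25 and 1.84 CPM in DMSO and 0.13, 0 and 0 CPM with FHT-1015, and 0.364, 0.245 and 0.268 CPM in DMSO and 9.16, 8.96 and 7.25 CPM with IDE196. Its fall was counted from 2 reads against 102, or 42.3-fold with a 95% counting interval of 11.4 to 354, and its rise was 4.82 (SE 0.39). The fitted IRF4 difference of -10.01 was -12.98 without FHT-1015 replicate 1 and -9.36 without replicate 3. TFAP2A and SNAI2, neural crest factors, were also opposite, with -0.63 and -1.61 under FHT-1015 and 1.15 and 0.72 under IDE196. ZEB2 rose with IDE196 alone (0.72), LEF1, a partner of beta-catenin, rose with FHT-1015 alone (1.68, SE 0.18), and SOX9 and FOXD3 rose with both drugs, by 1.19 and 0.79 with FHT-1015 and 0.69 and 1.19 with IDE196. For PAX3 no change was called, at 0.05 and -0.04.

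Pigment and melanosome genes were lowered by FHT-1015 and mostly kept or raised by IDE196. Of 18 tested, 16 fell with FHT-1015, 7 rose and 2 fell with IDE196, and 16 had a negative difference, against 17.1% of all genes. Of all genes, 30.1% fell with FHT-1015, and 26.9% rose and 27.9% fell with IDE196. The list's median was -2.12 with FHT-1015 and 0.18 with IDE196. OCA2 (ENSG00000104044.16, chromosome 15, 27754875 to 28099358, minus strand), a melanosomal transporter, had 44.7, 49.1 and 44.7 CPM in DMSO and 4.61, 4.77 and 4.18 CPM with FHT-1015, and 30.7, 28.8 and 22.8 CPM in DMSO and 63.7, 70.9 and 59 CPM with IDE196, effects of -3.36 (SE 0.15) and 1.23 (SE 0.12) with a difference of -4.59 (SE 0.19, edgeR adjusted p 2.26e-16). The groups did not overlap in either experiment. The transport proteins of the melanosome RAB27A, RAB38 and MYO5A and the enzyme gene QPCT were opposite too, with -1.47, -1.82, -1.69 and -2.36 under FHT-1015 and 0.67, 0.27, 0.67 and 0.66 under IDE196. The RAB38 rise was no longer called under 2 of 21 alternatives (adjusted p from 0.000687 to 0.0823 over edgeR, DESeq2 and limma fits). PMEL, MLANA, TYRP1 and GPR143, a fibril protein, an antigen, an enzyme and a receptor of the melanosome, fell with FHT-1015 alone, at log2 fold changes of -3.56, -2.76, -1.26 and -1.88. TYR, tyrosinase, fell with both drugs but unequally, at log2 fold changes of -4.37 and -0.37, and GPNMB, a melanosomal glycoprotein, rose with both, by 0.48 and 0.95.

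**Figure D2:**
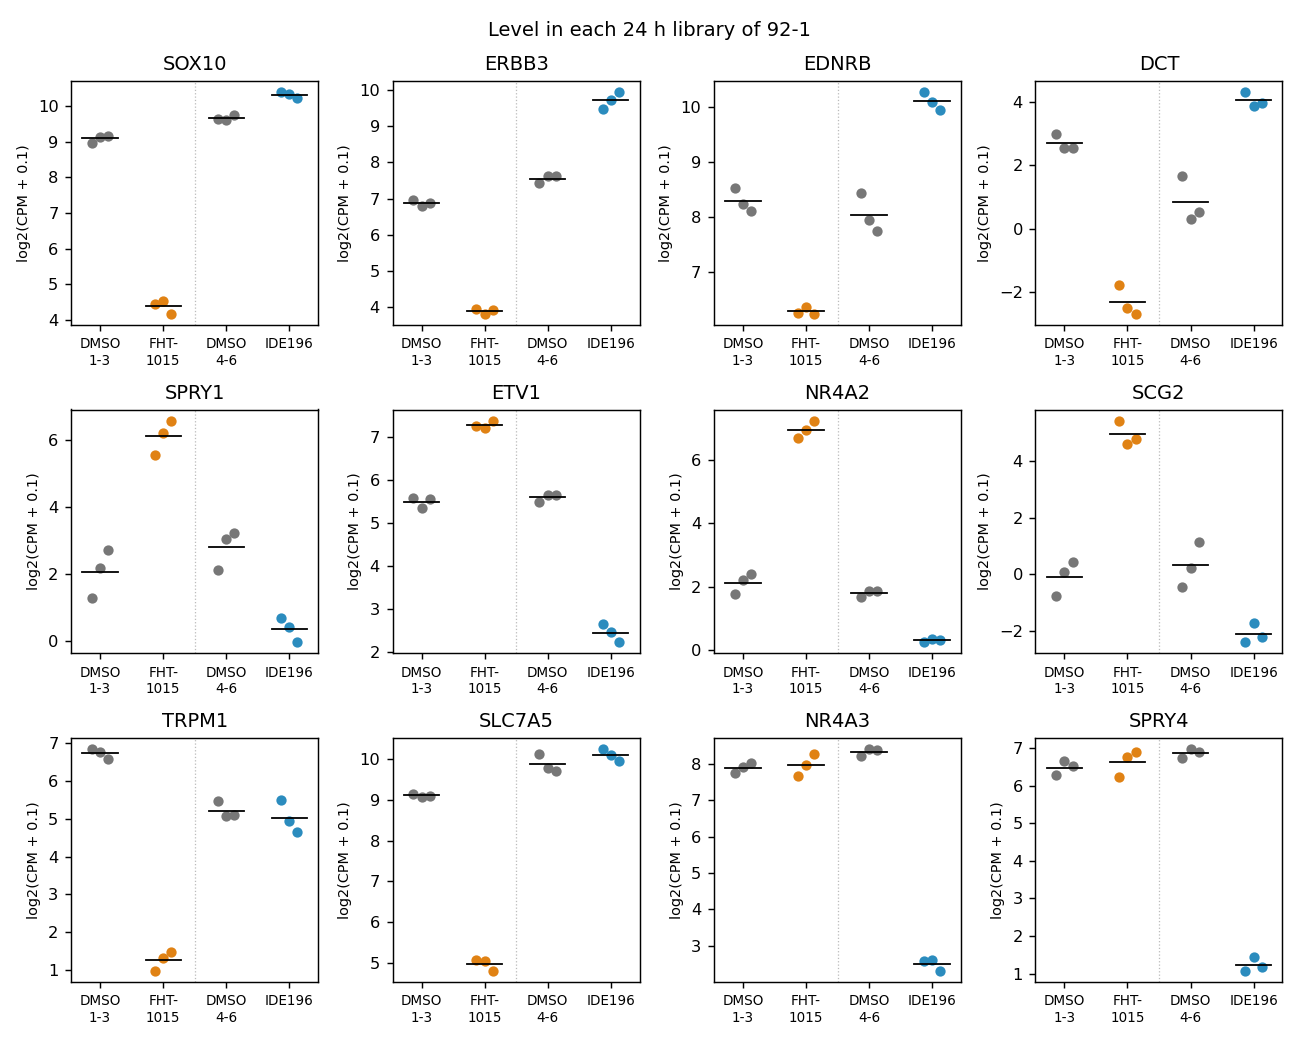
Level of 12 genes in each of the 12 libraries of 92-1 at 24 h, as log2 of CPM plus 0.1. Points are replicates, horizontal bars their means, and the dotted line parts the FHT-1015 experiment (left) from the IDE196 experiment (right). SOX10, ERBB3, EDNRB and DCT fall with FHT-1015 and rise with IDE196, SPRY1, ETV1, NR4A2 and SCG2 do the reverse, and the bottom row shows genes moved by 1 drug alone.

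Matrix genes and receptor tyrosine kinases held further opposite movers. Of 24 extracellular matrix genes tested, 11 rose and 1 fell with IDE196 while 5 rose and 8 fell with FHT-1015, with medians of 0.82 and -0.30, and 6 were in the opposite class (4.26% of all genes). The FHT-1015 counts are near the shares of all genes, 26.4% higher and 30.1% lower, and 26.9% of all genes rose and 27.9% fell with IDE196. BCAN (ENSG00000132692.19, chromosome 1, 156641390 to 156659532, plus strand), the proteoglycan brevican, had 506, 498 and 530.1 CPM in DMSO and 98.9, 90.5 and 80.8 CPM with FHT-1015, and 623, 605 and 487 CPM in DMSO and 2217, 2066 and 1973 CPM with IDE196, effects of -2.51 (SE 0.10) and 1.87 (SE 0.10). LAMA4, a laminin chain of vessel and nerve basement membranes, had effects of -1.58 (SE 0.20) and 2.98 (SE 0.16), and COL9A3 effects of -1.70 and 1.12. The basement membrane collagen COL4A2 and the microfibril collagen COL6A1 moved less, with -0.41 and -0.55 under FHT-1015 and 0.54 and 0.51 under IDE196. VCAN, the proteoglycan versican, rose with FHT-1015, by 2.27 (SE 0.38), and had -0.67 (SE 0.43) with IDE196, which was not called (edgeR adjusted p 0.193), a difference of 2.93 (SE 0.57). Among 19 receptor tyrosine kinases tested, 7 rose and 8 fell with FHT-1015, 9 rose and 4 fell with IDE196, and 4 were in the opposite class. Of all genes, 26.4% rose and 30.1% fell with FHT-1015, and 26.9% rose and 27.9% fell with IDE196. The FHT-1015 counts of the kinases lie above these shares by few genes, and the falls with IDE196 somewhat below. NTRK2 (ENSG00000148053.16, chromosome 9, 84668551 to 85027070, plus strand), the receptor of BDNF, had 44.1, 36 and 45.2 CPM in DMSO and 7.08, 4.92 and 3.23 CPM with FHT-1015, and 36.8, 43.3 and 46 CPM in DMSO and 169, 189 and 221 CPM with IDE196, and its difference was -5.25 (SE 0.29, edgeR adjusted p 8.27e-14). RET, the GDNF family receptor, and FGFR3 followed the same course, with -2.98 and -1.07 under FHT-1015 and 2.24 and 2.16 under IDE196, ERBB3 being the fourth. ALK fell with both drugs, far more with IDE196 (-6.22, SE 0.47) than with FHT-1015 (-1.05, SE 0.32), and the second was not called without FHT-1015 replicate 1 (edgeR adjusted p 0.0562, with 1.72e-11 to 0.0562 over 21 alternatives by edgeR, DESeq2 and limma).

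Among genes raised by the BAF inhibitor and lowered by the PKC inhibitor, the 7 named for the largest effects under both were NXPH1, SLC8A1, VGLL2, SEMA3A, SCG2, GPR37 and SPRY1. SLC8A1 (ENSG00000183023.18, chromosome 2, 40097270 to 40611053, minus strand), a sodium and calcium exchanger, had 5.86, 3.03 and 3.57 CPM in DMSO and 70.3, 67.9 and 53.3 CPM with FHT-1015, and 10.8, 11.1 and 8.59 CPM in DMSO and 0.0438, 0.198 and 0.72 CPM with IDE196. SEMA3A (ENSG00000075213.11, chromosome 7, 83955777 to 84492724, minus strand), an axon guidance ligand, had 3.11, 2.37 and 2.14 CPM in DMSO and 73.6, 68.3 and 63.9 CPM with FHT-1015, and 3.55, 2.64 and 4.34 CPM in DMSO and 0.263, 0.148 and 0.664 CPM with IDE196. No treated library of either gene overlapped its DMSO set, and the differences were 8.98 (SE 0.46) and 8.06 (SE 0.40, edgeR adjusted p 1.19e-14 and 7.38e-15). SCG2 (ENSG00000171951.5, chromosome 2, 223596940 to 223602503, minus strand), a secretory granule protein, had 0.489, 0.949 and 1.25 CPM in DMSO and 43.6, 24.7 and 27.7 CPM with FHT-1015, and 0.637, 1.08 and 2.10 CPM in DMSO and 0.0877, 0.198 and 0.111 CPM with IDE196, effects of 5.20 (SE 0.35) and -3.23 (SE 0.59). GPR37 (ENSG00000170775.2, chromosome 7, 124745997 to 124765627, minus strand), an orphan receptor of brain and glia, had the highest CPM of these 7 genes, with 46.6, 64.9 and 108 CPM in DMSO and 524, 466 and 491 CPM with FHT-1015, and 149, 180.2 and 237 CPM in DMSO and 14.6, 14.7 and 16.1 CPM with IDE196. The neurexin ligand NXPH1 (ENSG00000122584.13, chromosome 7, 8433955 to 8752963, plus strand) and the TEAD cofactor VGLL2 (ENSG00000170162.14, chromosome 6, 117265558 to 117273565, plus strand) had effects of 4.20 and 4.01 with FHT-1015 and -4.42 and -3.45 with IDE196. The low end with IDE196 again rested on few reads: without IDE196 replicate 3 the IDE196 effect was -6.38 for SLC8A1 and -4.04 for SEMA3A.

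Genes that report on the MAPK cascade separated the drugs. Of 19 tested, 17 fell and 1 rose with IDE196 (27.9% and 26.9% of all genes did), and 13 had a positive difference (15.9% of all genes did). With FHT-1015, 6 rose and 8 fell, the rises being near their share of all genes (26.4%, with 30.1% falling). The medians were -1.84 with IDE196 and -0.15 with FHT-1015. SPRY1 (ENSG00000164056.11, chromosome 4, 123396795 to 123403760, plus strand), a Sprouty inhibitor of the cascade, had 2.35, 4.51 and 6.48 CPM in DMSO and 47.1, 73.7 and 96.1 CPM with FHT-1015, and 4.28, 8.28 and 9.31 CPM in DMSO and 1.53, 1.24 and 0.886 CPM with IDE196, a difference of 6.60 (SE 0.49, edgeR adjusted p 2.23e-11). ETV1 (ENSG00000006468.14, chromosome 7, 13891228 to 13991425, minus strand), an ETS factor stabilised by the cascade, had 48, 40.7 and 46.9 CPM in DMSO and 154, 149 and 168 CPM with FHT-1015, and 44.8, 50.7 and 50.8 CPM in DMSO and 6.22, 5.44 and 4.59 CPM with IDE196, a difference of 4.95 (SE 0.16). In both genes the FHT-1015 libraries were above and the IDE196 libraries below all DMSO libraries. SPRY2, DUSP6, the phosphatase of ERK, and IER3 were opposite with smaller rises, 0.71, 0.97 and 1.08 under FHT-1015 against -3.77, -3.13 and -1.69 under IDE196. DUSP6 shares 40.5% and IER3 26.5% of its exon bases with other genes, and summing the 2 stranded columns kept both calls. PHLDA1 and DUSP4 fell more with FHT-1015 (-2.56 and -2.66) than with IDE196 (-0.93 and -1.40). MYC and CCND1, growth drivers downstream of the cascade, fell with both drugs, at log2 fold changes of -1.90 and -1.87 with FHT-1015 and -1.78 and -1.43 with IDE196, with a difference called for CCND1 of -0.44 (SE 0.14) and none for MYC. IL1RAP, an interleukin-1 co-receptor, fell with FHT-1015, at a log2 fold change of -3.32 (SE 0.32), and had -0.06 with IDE196.

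Immediate early genes mostly fell with IDE196. Of 18 tested, 12 fell and 3 rose with IDE196, 8 rose and 2 fell with FHT-1015, and 13 had a positive and 2 a negative difference. Of all genes, 27.9% fell with IDE196, 26.4% rose and 30.1% fell with FHT-1015, and 15.9% had a positive difference. The medians were -1.70 with IDE196 and 0.56 with FHT-1015. NR4A2 (ENSG00000153234.14, chromosome 2, 156324432 to 156342348, minus strand), an orphan nuclear receptor, had 3.33, 4.51 and 5.23 CPM in DMSO and 102, 124 and 151 CPM with FHT-1015, and 3.14, 3.58 and 3.53 CPM in DMSO and 1.10, 1.19 and 1.16 CPM with IDE196, effects of 4.87 (SE 0.20) and -1.57 (SE 0.27, edgeR adjusted p of the difference 1.2e-14). Its paralogue NR4A3 (ENSG00000119508.18, chromosome 9, 99821855 to 99866891, plus strand) had 217, 241 and 259.6 CPM in DMSO and 203, 249.7 and 312 CPM with FHT-1015, and 299, 341 and 334 CPM in DMSO and 5.83, 5.94 and 4.87 CPM with IDE196. NR4A3 thus overlapped its DMSO set under FHT-1015, with an effect of 0.09 and a 95% interval of -0.17 to 0.35, and fell far below it in every IDE196 library, an effect of -5.87 (SE 0.16). FOSB, JUNB and IER2, induced by growth signals, were opposite, with 1.72, 0.77 and 0.71 under FHT-1015 and -1.50, -1.48 and -1.83 under IDE196, and IER2 shares 30.8% of its exon bases with another gene. KLF6 ran against the list, with -1.52 (SE 0.09) under FHT-1015 and 0.79 (SE 0.09) under IDE196, and JUN rose with IDE196 by 2.0. EGR1 fell with IDE196 to a log2 fold change of -4.08 and had -0.31 (edgeR adjusted p 0.318) with FHT-1015.

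**Figure D3:**
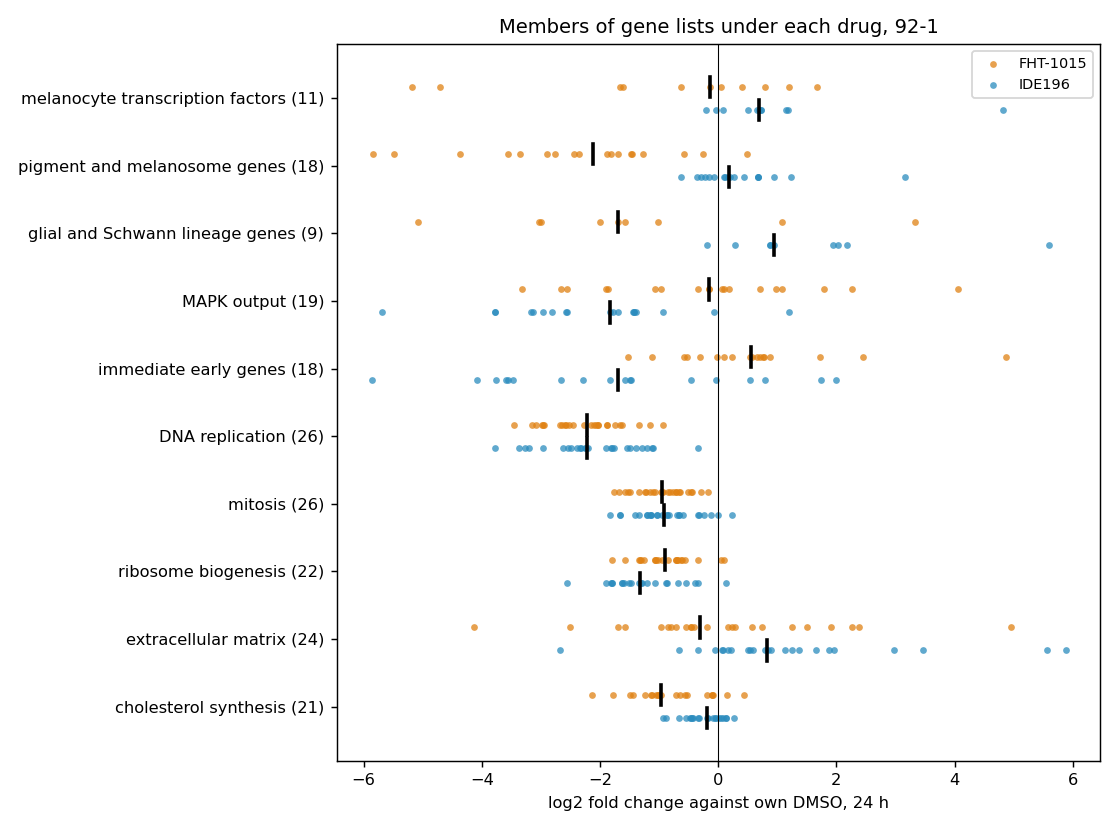
Log2 fold change of each tested member of 10 gene lists in 92-1 at 24 h, with FHT-1015 (upper row of each list) and with IDE196 (lower row), each against its own DMSO. Points are genes, thick bars the list medians, and the number tested is in brackets. The DNA replication medians are -2.22 and -2.22, whereas those of pigment genes (-2.12 and 0.18), glial genes (-1.70 and 0.94) and MAPK output (-0.15 and -1.84) stand apart.

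FHT-1015 alone lowered TRPM1, ATP10A, TSPAN10 and SLC7A5 and raised MAP2, ARRDC3, PCLO and CITED2, the genes with the largest differences in those classes. TRPM1 (ENSG00000134160.13, chromosome 15, 31001061 to 31161273, minus strand), a melanocyte cation channel gene, had 114, 107 and 95.2 CPM in DMSO and 1.88, 2.42 and 2.67 CPM with FHT-1015, and 43.9, 33.6 and 33.9 CPM in DMSO and 44.5, 30.8 and 25 CPM with IDE196. The FHT-1015 libraries fell far below their DMSO set, the IDE196 libraries overlapped theirs, and the effects were -5.49 (SE 0.20) and -0.15 with an interval of -0.45 to 0.15 for IDE196. SLC7A5 (ENSG00000103257.9, chromosome 16, 87830023 to 87869488, minus strand), the large neutral amino acid transporter, had 568, 541 and 544 CPM in DMSO and 33.6, 33.3 and 28 CPM with FHT-1015, and 1119, 881 and 833 CPM in DMSO and 1212, 1087 and 985 CPM with IDE196, effects of -4.12 (SE 0.13) and 0.21 (edgeR adjusted p 4.93e-19 and 0.0967). ATP10A, a phospholipid flippase gene (ENSG00000206190.11, chromosome 15, 25677273 to 25865172, minus strand), and TSPAN10, a tetraspanin gene of pigmented cells (ENSG00000182612.10, chromosome 17, 81637171 to 81648749, plus strand), fell to a log2 fold change of -4.88 and -4.76 and had -0.03 and -0.18 with IDE196. MAP2 (ENSG00000078018.19, chromosome 2, 209424058 to 209734118, plus strand), a microtubule protein of neurons, rose from 4.26, 4.87 and 5.47 CPM in DMSO to 72.5, 52 and 58.2 CPM with FHT-1015, whereas the IDE196 experiment had 24.1, 26.5 and 29.1 CPM in DMSO and 23.4, 19.6 and 25.4 CPM with the drug. The DMSO level of MAP2 was 2.46 higher on the log2 scale in the IDE196 experiment (SE 0.16, edgeR adjusted p 8.08e-11), so the starting points of this gene differed. Called gaps in the same sense were 1.97 for NXPH1, 1.95 for TCP11L2, 1.90 for PLXNA4, 1.37 for GPR37, 1.26 for SLC8A1 and 0.57 for SOX10. In the other sense they were -2.58 for IRF4, -2.39 for IL16, -1.80 for DCT and -1.51 for TRPM1. For GPR158, OLFML2A and PCLO no gap was called. ARRDC3, an alpha-arrestin, PCLO, a presynaptic scaffold, and CITED2, a coactivator that binds CBP and p300, rose by 3.63, 2.96 and 2.76 with FHT-1015 and had -0.11, 0.22 and 0.02 with IDE196.

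IDE196 alone lowered NR4A3, SPRY4, ETV4 and NR4A1 most, all targets of mitogenic signalling. SPRY4 (ENSG00000187678.9, chromosome 5, 142310427 to 142326455, minus strand) had 77.5, 100.1 and 91.8 CPM in DMSO and 74.7, 109 and 119.8 CPM with FHT-1015, and 106, 126 and 119 CPM in DMSO and 2.02, 2.62 and 2.16 CPM with IDE196. The FHT-1015 libraries overlapped their DMSO set (effect 0.17, 95% interval -0.11 to 0.46), and the difference was 5.87 (SE 0.24, edgeR adjusted p 1.3e-16). ETV4 (ENSG00000175832.13, chromosome 17, 43527844 to 43579620, minus strand) and NR4A1 (ENSG00000123358.20, chromosome 12, 52022832 to 52059507, plus strand) fell to a log2 fold change of -3.78 (SE 0.12) and -3.56 (SE 0.13) with IDE196 and had -0.16 and -0.03 with FHT-1015. ETV5, SPRED1 and SPRED2, further outputs and inhibitors of the cascade, were lowered by IDE196 alone as well, at log2 fold changes of -2.96, -1.45 and -1.43, SPRED2 having also -0.35 with FHT-1015, inside the margin. Upwards, the class was led by EPB41L4A (ENSG00000129595.13, chromosome 5, 112142441 to 112419316, minus strand), KLC3 (ENSG00000104892.17, chromosome 19, 45333434 to 45351520, plus strand), TMOD2 (ENSG00000128872.10, chromosome 15, 51751561 to 51816368, plus strand) and LBH (ENSG00000213626.13, chromosome 2, 30231369 to 30323730, plus strand), which encode a FERM domain protein, a kinesin light chain, a tropomodulin and a transcription cofactor. LBH had 22.7, 16.6 and 19.1 CPM in DMSO and 18.3, 16 and 28.6 CPM with FHT-1015, and 14.3, 14.4 and 16.7 CPM in DMSO and 77.4, 68.9 and 57.7 CPM with IDE196, an IDE196 effect of 2.17 (SE 0.18). The IDE196 effects of EPB41L4A, KLC3 and TMOD2 were 2.60, 2.02 and 2.12. When the 2 stranded columns were summed instead, those of EPB41L4A and KLC3 were 1.68 and 0.61, and EPB41L4A shares 21.3% of its exon bases with other genes.

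The targets and their pathways moved little or unevenly. SMARCA4 (ENSG00000127616.18, chromosome 19, 10960825 to 11079426, plus strand) had 243, 269 and 276 CPM in DMSO and 321, 312 and 295 CPM with FHT-1015, and 526, 572 and 547 CPM in DMSO and 401, 388 and 446 CPM with IDE196, so it was formally opposite, with 0.24 (SE 0.08) and -0.41 (SE 0.08). The FHT-1015 rise was not called under 4 of 21 alternatives (adjusted p from 0.00167 to 0.174 over edgeR, DESeq2 and limma fits), and the DMSO level was 1.06 higher on the log2 scale in the IDE196 experiment. SMARCA2 (ENSG00000080503.24, chromosome 9, 1980290 to 2193624, plus strand) rose with both drugs, by 0.71 (SE 0.10) and 0.65 (SE 0.10), the 95% interval of the difference being -0.24 to 0.36. Of 26 BAF subunit genes tested, 11 rose and 7 fell with FHT-1015, 5 rose and 9 fell with IDE196, and 10 had a positive and 3 a negative difference. The falls with FHT-1015 (30.1% of all genes) and the changes with IDE196 (26.9% higher and 27.9% lower of all genes) are at or near the shares of all genes. Of all genes, 26.4% rose with FHT-1015, and 15.9% had a positive and 17.1% a negative difference. DPF3, a reader subunit of muscle and neuron BAF, was opposite with -1.82 (SE 0.40) and 1.79 (SE 0.32), BICRA, of the GBAF form, rose with FHT-1015 by 1.08, and SMARCD2, a core subunit, fell to a log2 fold change of -0.88 with FHT-1015 and -0.38 with IDE196. Of 19 genes of the route from Gq to PKC, 9 fell and 6 rose with each drug, the rises being near the shares of all genes (26.4% and 26.9%). PLCB1, a phospholipase C beta, fell with IDE196 to a log2 fold change of -3.11 (SE 0.17) and rose with FHT-1015 by 0.57. RGS2 and RGS16, regulators that switch off G proteins, fell with IDE196 to a log2 fold change of -2.20 and -6.79. With FHT-1015 RGS2 rose by 2.49 (SE 0.27) and RGS16 fell to a log2 fold change of -1.13. RASGRP3 fell with IDE196 to a log2 fold change of -2.58 and with FHT-1015 to a log2 fold change of -0.39. PRKCD, the delta isoform of PKC, fell with FHT-1015 to a log2 fold change of -1.98 (SE 0.12) and rose by 0.28 with IDE196, the rise not being called under 6 of 21 alternatives (adjusted p from 0.0091 to 0.128 over edgeR, DESeq2 and limma fits).

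Proliferation genes fell with both drugs. All 26 DNA replication genes tested were lower under each drug, with medians of -2.22 and -2.22, and 15 had no called difference. Of all genes, 30.1% fell with FHT-1015 and 27.9% with IDE196, and 33% had a called difference, 15.9% a positive one. MCM7, a helicase subunit, fell more with IDE196 (-2.55) than with FHT-1015 (-1.63), and ORC1, of the origin recognition complex, more with FHT-1015 (-2.59) than with IDE196 (-1.29). Of 26 mitosis genes, 23 fell with FHT-1015 and 20 with IDE196, and 2 differed. Of 22 ribosome biogenesis genes, 19 and 20 fell, and 10 had a positive difference, for example GNL3, the nucleolar protein nucleostemin, at -0.84 and -1.79. The genes with the largest shared effects were TCP11L2 and PIK3IP1, an inhibitor of PI3 kinase, upwards and PLXNA4, a semaphorin receptor, and SLC16A6, a transporter, downwards. PIK3IP1 had 0.844, 1.31 and 0.951 CPM in DMSO and 12.9, 11 and 10.5 CPM with FHT-1015, and 2.00, 1.47 and 2.55 CPM in DMSO and 28, 28.8 and 26.7 CPM with IDE196. Its effects of 3.48 and 3.78 left a difference with a 95% interval of -0.99 to 0.39. SLC16A6 fell to a log2 fold change of -3.87 and -3.92, and TCP11L2 rose by 4.27 and 3.54. PLXNA4 fell to a log2 fold change of -4.08 and -5.44, and the first was -4.97 without FHT-1015 replicate 1 and -3.39 without replicate 3.

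Of 15 genes of the BCL2 family tested, which regulate cell death, 3 had a positive and 5 a negative difference, against 15.9% and 17.1% of all genes, the first count being near that share. BCL2L11 (ENSG00000153094.23, chromosome 2, 111119378 to 111168447, plus strand), which encodes the killer protein BIM, had 9.33, 7.77 and 9.03 CPM in DMSO and 23.9, 31.1 and 35.9 CPM with FHT-1015, and 10.2, 13.3 and 13.2 CPM in DMSO and 10.2, 8.91 and 7.42 CPM with IDE196, effects of 1.80 (SE 0.17) and -0.47 (SE 0.17). The fall with IDE196 left the lowest DMSO and the highest treated library nearly level, and it was not called under 3 of 21 alternatives (adjusted p from 0.00785 to 0.101 over edgeR, DESeq2 and limma fits). HRK, another killer protein, went the other way, -2.90 (SE 0.18) and 0.89 (SE 0.13), as did BIK, -1.71 and 1.75, whose FHT-1015 fall was not called under 2 of 21 alternatives, at -1.13 without DMSO replicate 3 (edgeR adjusted p 0.107) and -1.43 without FHT-1015 replicate 3 (edgeR adjusted p 0.0569). Over all 21 alternatives, by edgeR, DESeq2 and limma, the adjusted p of that fall ranged from 0.000468 to 0.107. BBC3 and BMF, which encode PUMA and BMF, rose with both drugs, by 1.35 and 1.58 with FHT-1015 and 1.43 and 2.05 with IDE196. BCL2 fell more with FHT-1015 (-1.26) than with IDE196 (-0.38).

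Cholesterol synthesis genes mostly fell with FHT-1015, and their differences were mostly negative. Of 21 genes tested, 15 fell with FHT-1015 and 10 with IDE196, the medians were -0.98 and -0.19, and 12 had a negative difference. Of all genes 30.1% fell with FHT-1015 and 27.9% with IDE196, and 17.1% had a negative difference. FDFT1, squalene synthase, and MSMO1 fell with FHT-1015 alone, at log2 fold changes of -1.78 and -1.24, while PMVK, phosphomevalonate kinase, was opposite in the other sense, at 0.44 and -0.48. Of 16 genes of the ATF4 stress response, 9 fell with FHT-1015 and 8 with IDE196, against 30.1% and 27.9% of all genes. VLDLR rose with FHT-1015 (2.07, SE 0.09) and fell with IDE196 (-1.20, SE 0.09). NUPR1, a stress-induced chromatin protein, fell with FHT-1015 (-3.52, SE 0.28) and rose with IDE196 (0.56), the rise not being called under 4 of 21 alternatives (adjusted p from 0.00071 to 0.205 over edgeR, DESeq2 and limma fits).

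The classes were next read at 4 h and in the lines MEL202 and MP41, in contrasts that had not defined them. The 4 h libraries of 92-1 were fitted together with those of 24 h and share their filter, scaling and dispersions, while the other lines were fitted alone. At 4 h in 92-1, effects of the drugs across genes had a Pearson r of -0.0486, and FHT-1015 lowered 16.3% and raised 11.3% of all genes, IDE196 9.03% and 6.86%. Of the 720 genes lower with FHT-1015 and higher with IDE196 at 24 h, FHT-1015 already lowered 405 (56.25%) and raised 35 at 4 h, and IDE196 raised 188 (26.1%) and lowered 9. Of the 363 in the reverse class, FHT-1015 raised 114 (31.4%) and lowered 52, and IDE196 lowered 105 (28.9%) and raised 3. At 4 h SOX10 had fallen to -4.94 and ERBB3 to -2.68 on the log2 scale with FHT-1015, when IDE196 gave 0.17 and 0.10 (edgeR adjusted p 0.342 and 0.612). SPRY1 was opposite at 4 h too, with 1.56 and -2.15, and so was NR4A2, with 3.19 and -0.82. Genes raised by IDE196 alone at 24 h were not untouched by FHT-1015 earlier: at 4 h 149 of 455 (32.7%) were lower with FHT-1015 and 43 higher. KLC3 and LBH were among the lower ones, at -1.22 and -1.63 with FHT-1015 at 4 h. Of the class lowered by IDE196 alone, 135 of 621 (21.7%) were higher with FHT-1015 at 4 h, NR4A3 by 1.82, and 79 (12.7%) were lower.

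MEL202 and MP41, also uveal melanoma lines, were treated with FHT-1015 and DMSO for 24 h and no IDE196 samples of these lines were analysed here, so only the FHT-1015 side was read. FHT-1015 lowered 10.2% of the genes tested in both 92-1 and MEL202 and 18.7% of those tested in both 92-1 and MP41, and raised 8.59% and 17.7%. Of the genes lower with FHT-1015 and higher with IDE196 in 92-1, it lowered 203 of 678 (29.9%) in MEL202 and 296 of 656 (45.1%) in MP41, and raised 20 and 46. Of the reverse class, it raised 96 of 355 (27.0%) and 136 of 339 (40.1%) and lowered 3 and 17. Of the genes raised by IDE196 alone, FHT-1015 raised 27 of 449 (6.01%) in MEL202 and 92 of 449 (20.5%) in MP41, and lowered 5 and 41. ERBB3 had -2.66 in MEL202 and -2.24 in MP41, SPRY1 had 3.89 and 2.34, and NR4A2 had 1.43 and 3.10, all called in the direction seen in 92-1. TFAP2A was not: it fell with FHT-1015 in 92-1 and had 0.24 in MEL202 (edgeR adjusted p 0.41) and a rise of 0.92 in MP41 (edgeR adjusted p 5.35e-05).

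**Figure D4:**
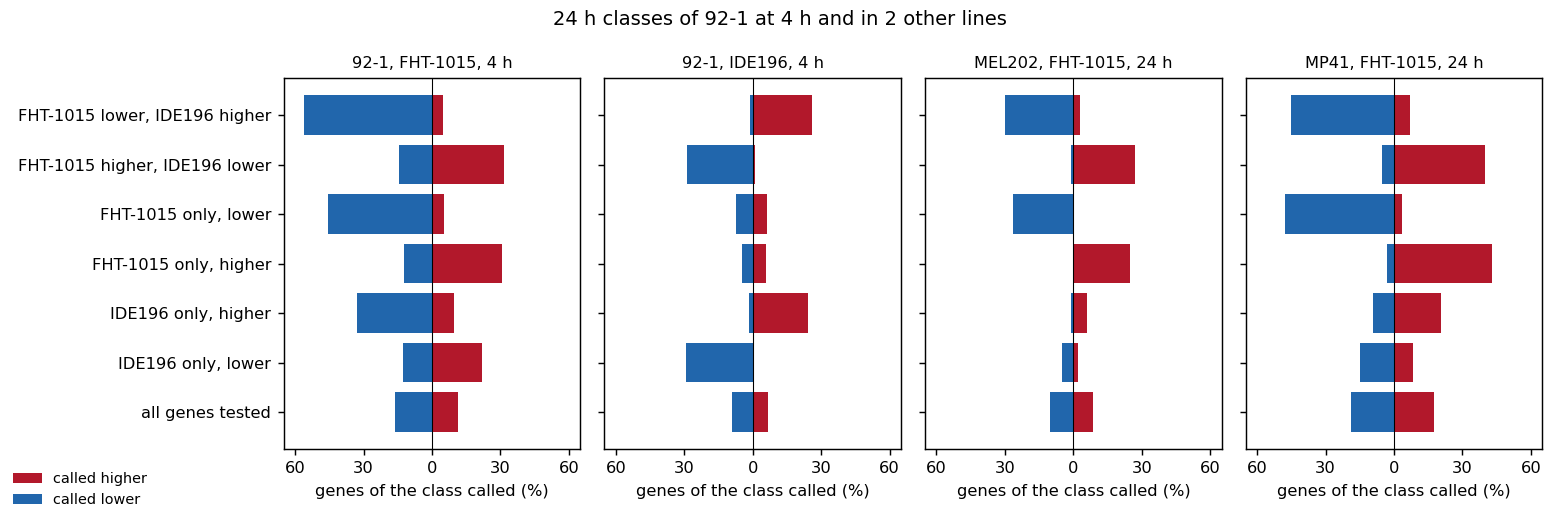
Share of each 24 h class of 92-1 genes that was called in contrasts outside its definition. Bars show the percentage of the class's tested genes called higher (red, right) and lower (blue, left) with FHT-1015 or IDE196 at 4 h in 92-1 and with FHT-1015 at 24 h in MEL202 and MP41, and the bottom bar is all genes tested. The class lower with FHT-1015 and higher with IDE196 reaches 56.25% lower with FHT-1015 at 4 h, against 16.3% of all genes.

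Across classes the shares of the promoters with one of these motifs were low and mostly near the share of all promoters. ACAAAG was present in 9.08% of all promoters, in 8.16% of the 515 of the class lower with FHT-1015 and higher with IDE196, and in 9.75% of the 277 of the reverse class. AP-1 was present in 3.76%, 5.83% and 3.25%, CRE in 2.80%, 1.17% and 4.69%, ETS in 6.94%, 4.27% and 5.78%, and ACAATG in 5.02%, 4.27% and 6.86%. The CArG box was present in 1.07%, 1.17% and 2.17%. The E-box was present in 8.89% of all promoters, in 7.57% and 6.14% of the opposite classes and in 12.3% of the 496 genes lowered by FHT-1015 alone. The M-box core was present in 1.47% of all promoters, in 1.94% and 2.53% of the opposite classes, in 2.62% of genes lowered by FHT-1015 alone and in 0.205% of genes lowered by IDE196 alone. These shares were not tested, and a match is a description of letters.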

How the data were processed

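Gene expression was measured by RNA sequencing of poly-A RNA with the NEBNext Ultra kit, per the labels' protocols, and reads fell in nearly equal shares on both strands. The authors deposited raw counts per gene, and the unstranded column was used here. The submitters' processing notes name the build hg38 and limma, while the aligner and annotation release are not given in the sources used here. Gene names came from GENCODE 29, which matched 58597 of 58870 identifiers.

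The 24 samples of 92-1, 8 groups at 4 h and 24 h, were fitted together with edgeR 4.0.16 in R 4.3.3 (TMM scaling, low-count filter, quasi-likelihood F-test, Benjamini-Hochberg adjustment over 16917 genes, threshold 0.05), and MEL202 and MP41 each alone. The difference of drug effects is a contrast of this fit, and CPM values use its scaled library sizes, except those of the marker check. Reads in genes ranged from 11991337 to 23086368 in the 24 h libraries, and counting intervals cover counting error only. The scripts were tested on simulated data. Exon overlap with other genes was computed because reads are not assigned by strand.

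Named genes are protein-coding with a mean of at least 5 CPM, except opposite movers of a list and 4 set genes, for which no minimum was used: 7 for each opposite direction, by the larger size of the smaller effect and with no overlap between replicates, 4 for each class moved by 1 drug, 2 for each shared direction, the set genes SOX10, MITF, SMARCA4 and SMARCA2, and in each of 23 lists the called members with the largest positive and negative difference and all opposite movers, 112 in all, of which some are not reported here. The members and lists were chosen with earlier results of these data known. Other list members given as examples, and the comparison of DMSO sets, were chosen after values were seen. Alternatives were another scaling, other filters, DESeq2 1.42.0, limma 3.58.1 with voom, 24 h samples alone, the 2 stranded columns summed, the replicate block, another margin and each replicate left out.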

Additional observations from a re-analysis of the deposited data

Results flagged for a closer look

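The difference between the drugs changed with time for 3219 genes (edgeR, adjusted p under 0.05), and of 2286 genes with a called difference at both 4 h and 24 h, 293 had opposite signs. Among the named genes 3 did so. LAMA4, a laminin chain, had a difference of 0.83 at 4 h and -4.55 at 24 h, a change of -5.38 (edgeR adjusted p 1.22e-11), with 0.82 for FHT-1015 and -0.01 for IDE196 at 4 h. SNAI2, a neural crest factor, had 1.43 at 4 h and -2.33 at 24 h, a change of -3.76 (edgeR adjusted p 1.28e-11), FHT-1015 having given 1.42 at 4 h. RRM2B, a ribonucleotide reductase subunit, had -0.56 at 4 h and 0.53 at 24 h, a change of 1.10 (edgeR adjusted p 0.000537).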

How the results depend on the processing

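Of 256 counts of genes recomputed under the alternatives, 252 stayed within 1.5 times the value reported, and the 4 that did not were the classes moved by 1 drug under the 1.2-fold margin, with 66 and 89 genes raised and lowered by FHT-1015 and 69 and 109 by IDE196. With each replicate left out in turn, genes with a positive difference numbered 2324 to 2756 and with a negative one 2551 to 2722, the opposite classes 620 to 695 (lower with FHT-1015) and 326 to 373, and the classes of 1 drug 464 to 543 and 531 to 604 (FHT-1015 higher and lower) and 349 to 400 and 498 to 688 (IDE196). Of the named differences, 2332 values kept their direction and call and 18 lost the call, in NOP14 (9 alternatives, adjusted p from 0.00629 to 0.19 over edgeR, DESeq2 and limma fits), CDC25C (8, from 0.00635 to 0.144) and GLA (1, from 0.00345 to 0.0812). The difference of SLC16A6, which was not called, turned to -0.00245 without FHT-1015 DMSO replicate 3 and to -0.19 without IDE196 replicate 3, and was at most 0.35 with 1 replicate left out. Scaling by library size alone moved the median of all genes to 0.081 with FHT-1015 and 0.09 with IDE196.

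In the FHT-1015 experiment, deviations of same-numbered samples correlated at 0.208, 0.029 and 0.0835 at 4 h and 0.0523, 0.173 and -0.148 at 24 h. Those of differently numbered samples ran from -0.145 to 0.0551 at 4 h and from -0.2 to 0.113 at 24 h. These few values do not settle whether the replicate numbers pair the samples, so counts with a replicate block are given as well. The labels give IDE196 samples and their DMSO samples no number in common, so no pairing was tested there. With the replicate block, 2818 genes had a positive and 2953 a negative difference, the opposite classes held 738 and 391 genes, FHT-1015 alone moved 573 and 666, and IDE196 alone 468 and 663. At 11.5% biological variation and a median standard error of 0.225, small differences between the drugs were not detectable.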

Other observations

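Of all genes, 26.4% rose and 30.1% fell with FHT-1015, 26.9% rose and 27.9% fell with IDE196, and 15.9% had a positive and 17.1% a negative difference. Growth restraint genes mostly rose with the PKC inhibitor. Of 16 FOXO targets and growth restraint genes tested, 12 rose and 2 fell with IDE196, and 8 rose and 2 fell with FHT-1015, with medians of 1.43 and 0.63. FOXO3 itself rose with IDE196 alone (1.64 against -0.05), as did IRS2, an insulin receptor adaptor (1.62 against -0.30), whereas BCL6, a transcriptional repressor, rose with FHT-1015 alone (2.34 against -0.11). PDK4, a kinase that restrains pyruvate oxidation, had 0.59 with FHT-1015 and fell with IDE196 (-2.96). Among 15 D cyclins and CDK inhibitors, 3 had a positive and 4 a negative difference, against 15.9% and 17.1% of all genes. CDKN2B, which encodes p15, rose with FHT-1015 alone (1.51), and CDKN1C, which encodes p57, was lower with FHT-1015 (-0.82) and higher with IDE196 (0.92), the fall not being called under 2 of 21 alternatives (adjusted p from 2.36e-07 to 0.104 over edgeR, DESeq2 and limma fits). Of 17 p53 targets, 4 had a positive and 6 a negative difference (15.9% and 17.1% of all genes), GDF15 falling more with IDE196 (-3.88) than with FHT-1015 (-1.46), while FAS had -1.35 and 0.23 (-0.99 and 1.11 when the 2 stranded columns were summed) and ZMAT3 was opposite (-0.45 and 0.64).

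Of 20 glycolysis genes, 16 fell with FHT-1015 and 12 with IDE196 (30.1% and 27.9% of all genes did), and 8 had a positive and 5 a negative difference. SLC2A3, a glucose transporter, rose with FHT-1015 (2.10), PFKFB3 fell with FHT-1015 alone (-1.40), and PFKL was opposite (-0.57 and 0.32). Of 23 lysosome genes, 15 fell with FHT-1015 and 8 with IDE196, against 30.1% and 27.9% of all genes, and 11 had a negative (17.1% of all genes) and 1 a positive difference. NPC1 and LAMP2 were opposite, at -0.88 and -0.28 with FHT-1015 and 0.29 and 0.26 with IDE196. Of 16 YAP and TEAD targets, 7 rose with FHT-1015 and 10 with IDE196 (26.4% and 26.9% of all genes did), and NT5E, an ecto-nucleotidase, was opposite, at -2.32 (SE 0.23) and 1.54 (SE 0.15). Of 19 interferon and HLA class I genes, 4 rose and 6 fell with FHT-1015 and 9 rose and 3 fell with IDE196, the FHT-1015 counts being near the shares of all genes (26.4% and 30.1%). IFIT3 and MX1, antiviral proteins, were opposite, at -1.51 and -1.44 with FHT-1015 and 0.61 and 0.74 with IDE196. Of 19 markers of other cell types 9 could be tested, and RLBP1 had the only called difference (-1.91). Of the opposite movers in these lists, some effects were not called under every alternative (adjusted p, range over 21 alternatives by edgeR, DESeq2 and limma). They were LAMP2 with FHT-1015 (4 lost, 0.00654 to 0.203) and with IDE196 (6 lost, 0.0072 to 0.241), MX1 with IDE196 (5 lost, 0.00385 to 0.135) and NPC1 with IDE196 (4 lost, 0.00478 to 0.116). PFKL with IDE196 (0.00051 to 0.055) and ZMAT3 with FHT-1015 (0.000159 to 0.058) each lost the call under 1 alternative.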
